A study of Mus musculus with 6 samples.

Results

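The 7 genes described here encode the enzymes that carry out and tune the committed step of glycolysis: the 6-phosphofructo-1-kinase subunits Pfkm, Pfkl and Pfkp, and the bifunctional enzymes Pfkfb1, Pfkfb2, Pfkfb3 and Pfkfb4. They were taken as every non-control probe whose gene name in the array files was one of these symbols, which gave 10 probes of 39429 and 7 gene names of 31829. Pfkfb3 was chosen by its measured difference between mutant and control arrays, so its values are given as a description, with no test, and the tests concern the other 6 genes.

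Transcript levels were measured with 1-colour Agilent arrays in pancreatic islets from male mice aged 6 weeks, in 3 control and 3 mutant RNA samples, each made from 2 pancreata of 1 genotype. Controls were Nkx6.1fl/+;Pdx1-CreERTM and mutants Nkx6.1fl/-;Pdx1-CreERTM, bred from Nkx6.1-flox mice on a mixed FVB/N and C57Bl/6J background and Pdx1-CreERTM mice on a mixed Cd1 and C57Bl/6J background. Both groups thus carried 1 floxed allele and the recombinase, which tamoxifen activates and the Pdx1 promoter drives in the pancreas, and both received tamoxifen in corn oil at 2 mg per 25 g body weight, 4 times from the age of 4 weeks. The comparison addresses what changes in islets when Nkx6-1, a transcription factor of beta cells, is lost. Controls can also lose their floxed allele to the recombinase but keep 1 wild-type allele. The null allele of mutants was present before tamoxifen as well.

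Phosphofructokinase adds a second phosphate to fructose 6-phosphate, and its tetramers are built from muscle (Pfkm), liver (Pfkl) and platelet (Pfkp) subunits. Its strongest known activator is fructose 2,6-bisphosphate, which the Pfkfb enzymes both make, with their kinase domain, and break down, with their phosphatase domain. The balance of both activities differs between the isoforms and is shifted by phosphorylation. In beta cells glycolytic flux couples blood glucose to insulin secretion, and islet phosphofructokinase is known for oscillations of that flux.

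Pfkfb3, Pfkfb4 and Pfkp each had a pair of probes, and their sequences are shown because the probes of a pair differed in what they show between groups or in whether they rose above background. One probe of each pair holds the hexamer AATAAA, the common polyadenylation signal, in capitals below, where the last 30 bases of these probes are given 5′ to 3′. Coordinates are those of the array files (mm9), which name the transcripts NM_133232 for Pfkfb3, NM_173019 for Pfkfb4 and NM_019703 for Pfkp. No gene model of that build was used here, so exons are not assigned.
Pfkfb3, end of the first probe, chr2:11393453-11393482, minus strand: gcaagaacAATAAAaacctggttgagatac
Pfkfb3, second probe, chr2:11404189-11405602, minus strand: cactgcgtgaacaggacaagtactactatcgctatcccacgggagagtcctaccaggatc
Pfkfb4, end of the first probe, chr9:108934682-108934711, plus strand: gtgtccagcattctttgcAATAAAtacttt
Pfkfb4, second probe, chr9:108910455-108910514, plus strand: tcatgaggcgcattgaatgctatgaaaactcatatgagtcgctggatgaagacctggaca
Pfkp, first probe, chr13:6581718-6583872, minus strand: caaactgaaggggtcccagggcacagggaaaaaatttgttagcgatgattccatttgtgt
Pfkp, end of the second probe, chr13:6579124-6579153, minus strand: tttgccagtcAATAAAcacctttggttggt

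The hexamer, searched on the probe strand only, occurred in 4965 of all 39429 probes (12.6%). The probe with the hexamer represents the gene in Pfkfb3 and Pfkfb4, and the probe without it in Pfkp. The 60 bases of the second Pfkfb3 probe cover 1414 bases of the genome and those of the first Pfkp probe 2155 bases, so neither is contiguous in the genome. The probes of a pair lay 10676 bases apart in Pfkfb3, 24137 in Pfkfb4 and 2534 in Pfkp. The other 4 genes had 1 probe each, at chr15:97962713-97962772 for Pfkm (NM_021514), chr10:77450926-77450985 for Pfkl (NM_008826), chrX:147078320-147078379 for Pfkfb1 (NM_008824) and chr1:132586122-132586181 for Pfkfb2 (NM_001162415). The 7 genes thus lie on 7 chromosomes.

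Signals are given as normalized log2 signal, the log2 of the background-corrected spot intensity minus the 75th percentile of the array, so that 0 is the level of that percentile. Arrays do not allow the level of one probe to be set against that of another, and the genes are therefore compared between samples, not with each other. The share of probes well above background was 73.4% to 76.3% on control arrays and 63.9% to 74.4% on mutant arrays. Mutant arrays A and B stood apart, with lowest background-corrected signals of 7.98 and 6.85 against 2.31 to 3.31 on the other 4. Slide 1 carried mutants B and C with control A, and slide 2 carried controls B and C with mutant A, so differences are also given within slides. The targeted gene Nkx6-1 had 1 probe, whose signal was lower in mutants without passing (log2 difference -0.48; limma, adjusted p = 0.131), and the labels do not state whether it lies in the deleted part. All 9 beta cell markers were well above background on all 6 arrays. The p-values measure the spread between these pooled samples.

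None of the 6 genes other than Pfkfb3 passed the threshold, a Benjamini-Hochberg adjusted p under 0.05 in limma over all 22775 gene names tested, of which 576 (2.53%) passed. Pfkp and Pfkfb1 were the 2 with an unadjusted p under 0.05 in limma, where 4600 of all genes (20.2%) had one. Both also had all 3 mutant arrays above all 3 control arrays, while arrays did not overlap in 26.3% of all genes tested, with the mutants above in 12.3%. The median difference of the 6 genes, mutant minus control, was -0.0058 on the log2 scale, beside -0.025 over all genes. The largest of the 6 in size was that of Pfkfb2. Pfkfb3 differed by 2.85, and 39 of all genes tested, Pfkfb3 included, were higher in mutants by as much or more. As Pfkfb3 was chosen for this difference, its place among all genes is a description only.

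**Figure D1:**
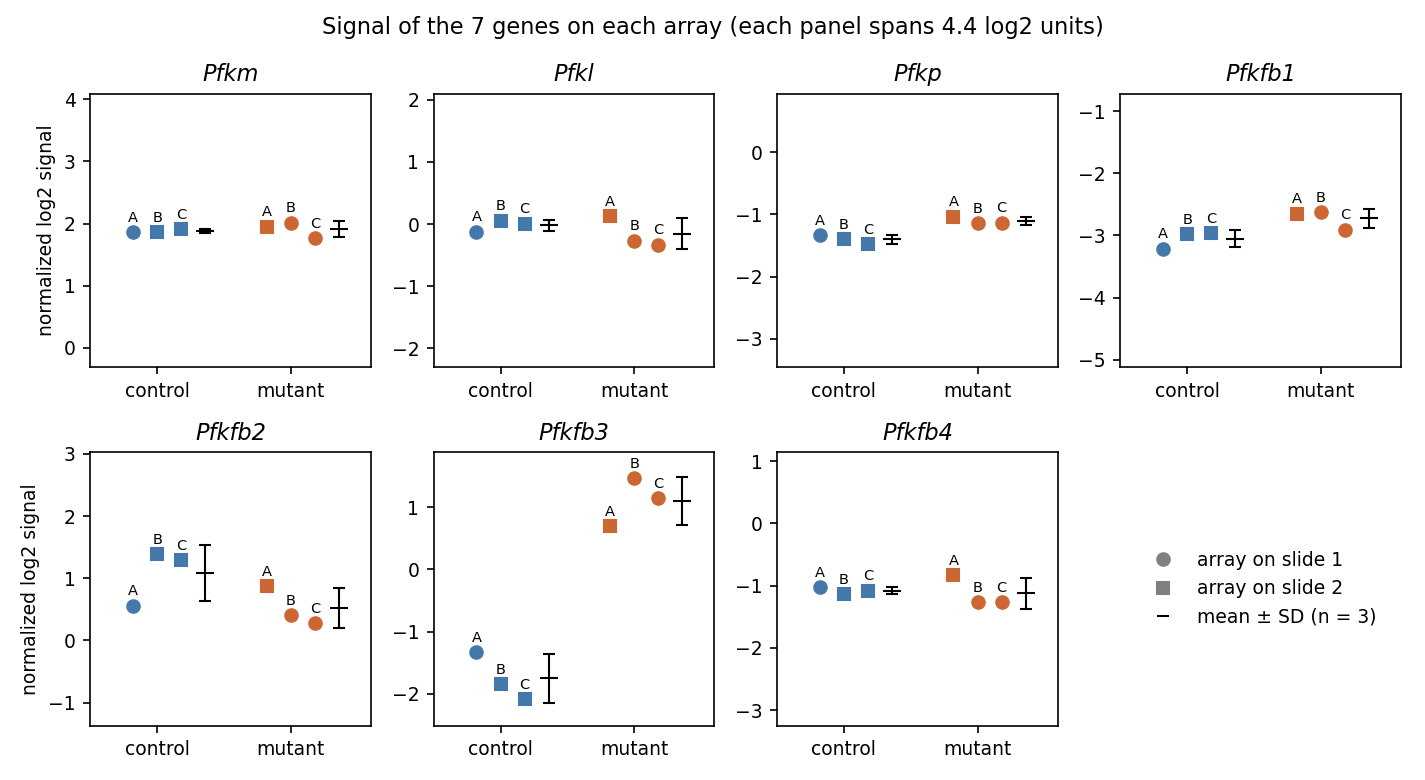
Normalized log2 signal of the representative probe of each of the 7 genes (y axis) on the 3 control and 3 mutant arrays A to C, with circles for arrays on slide 1, squares for slide 2, and bars for the mean ± SD of a group. All panels span the same range, and the gap between groups in Pfkfb3, from -1.33 to 0.69, is wider than any distance between arrays in the other 6 panels.

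None of the phosphofructokinase subunits passed, with differences from -0.13 to 0.30. Pfkm, the muscle subunit, had normalized log2 signals of 1.86, 1.86 and 1.91 in controls A, B and C and of 1.95, 2.01 and 1.77 in mutants A, B and C. Mutants A and B lay above all controls and mutant C below them. The difference was 0.030 (SE 0.11, 95% interval -0.23 to 0.29), which did not pass (limma, adjusted p = 0.893). It was 0.030 within slide 1 and 0.059 within slide 2. Pfkm had 10 spots on each array, the only one of the 7 genes with more than 1. Their SD on an array ran from 0.024 to 0.089, and the SD between the array means was 0.029 in controls and 0.13 in mutants.

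Pfkl, the liver subunit, read -0.12, 0.051 and 0.0079 in controls A, B and C and 0.13, -0.27 and -0.33 in mutants. Mutant A was the highest of all 6 arrays and mutants B and C the lowest, so the groups overlapped. The difference was -0.13 (SE 0.15, 95% interval -0.51 to 0.24) and did not pass (limma, adjusted p = 0.651). It was -0.17 within slide 1 and 0.099 within slide 2, of opposite sign. A slide block gave -0.038 (limma, adjusted p = 0.860).

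Pfkp, the platelet subunit, had signals of -1.33, -1.40 and -1.48 in controls A, B and C and of -1.04, -1.15 and -1.14 in mutants. All 3 mutant arrays lay above all 3 controls, and the spread within each group was small, with ranges of 0.14 in controls and 0.11 in mutants. Mutants were 1.23-fold higher, a difference of 0.30 (SE 0.098, 95% interval 0.059 to 0.54), which did not pass after adjustment (limma, adjusted p = 0.171). The difference was 0.19 within slide 1 and 0.40 within slide 2. The fit with a slide block gave 0.30 (limma, adjusted p = 0.156).

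The second Pfkp probe, the one with AATAAA, did not show this pattern. It read -4.27, -5.02 and -4.80 in controls A, B and C and -5.13, -4.44 and -4.58 in mutants. Its lowest and its highest array were thus a mutant and a control, and the groups overlapped. The difference was -0.019 (SE 0.26, 95% interval -0.66 to 0.63; limma over all tested probes, adjusted p = 0.976), and -0.24 and -0.22 within slides 1 and 2. Its interval contains the whole interval of the first probe, and the difference between the probes was not tested. With the mean of both probes as the value of the gene, the difference of Pfkp was 0.14 (limma, adjusted p = 0.635) in place of 0.30.

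**Figure D2:**
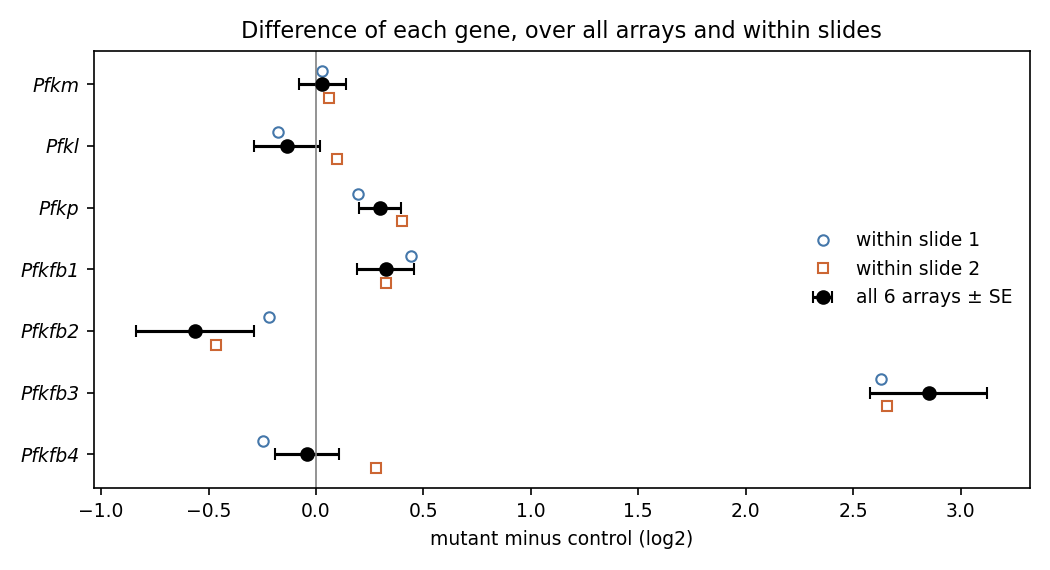
Difference between mutant and control arrays in log2 units (x axis) for each of the 7 genes, with black points and bars for all 6 arrays ± SE, open circles for slide 1 and open squares for slide 2. Pfkl and Pfkfb4 have differences of opposite sign on the slides, and Pfkfb3 has 2.63 and 2.66.

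Among the bifunctional enzymes, Pfkfb1 was slightly higher and Pfkfb2 lower in mutants, neither past the threshold, while Pfkfb3 was several-fold higher and Pfkfb4 differed by -0.042. Pfkfb1, whose products are known from liver and muscle, read -3.21, -2.98 and -2.96 in controls A, B and C and -2.65, -2.62 and -2.91 in mutants. The mutant arrays lay above the controls, mutant C by the smallest margin. The difference was 0.32 (SE 0.13, 95% interval 0.0037 to 0.65), or 1.25-fold, and did not pass (limma, adjusted p = 0.244). It was 0.44 within slide 1 and 0.32 within slide 2, and a slide block gave 0.38 (limma, adjusted p = 0.146). Without mutant arrays A and B it was 0.14, against 0.42 without mutant C (limma, adjusted p = 0.20). Mutants A and B thus stood further from the controls than mutant C. A part of their higher lowest signals in this was not tested.

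Pfkfb2, known from heart and also present in islets, was the member whose representative probe had the widest spread among controls (SD 0.45). It read 0.56, 1.39 and 1.29 in controls A, B and C and 0.88, 0.41 and 0.27 in mutants. Control A lay below mutant A, so the groups overlapped. The difference was -0.56 (SE 0.27, 95% interval -1.23 to 0.11), which did not pass (limma, adjusted p = 0.317). Within each slide every mutant lay below every control. Each slide held only 1 array of 1 of the groups, and the share of all genes with this pattern was not counted. The control on slide 1 stood above both mutants there, by 0.22 on average, and the mutant on slide 2 below both controls there, by 0.46. A slide block gave -0.34 (limma, adjusted p = 0.154), again short of the threshold, which 2.94% of all genes passed in that fit. Leaving out control A gave -0.82 (limma, adjusted p = 0.103) and leaving out control B -0.41.

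Pfkfb3, the isoform whose kinase activity far exceeds its phosphatase activity and which is known from proliferating and hypoxic cells, was low in every control and high in every mutant. Its first probe read -1.33, -1.84 and -2.09 in controls A, B and C and 0.69, 1.46 and 1.14 in mutants. The lowest mutant stood well above the highest control. Group means were -1.75 ± 0.39 (SD, n = 3) and 1.10 ± 0.39 (SD, n = 3), a difference of 2.85 (SE 0.27) or 7.22-fold. Background-corrected spot intensities were 611 to 765 in controls and 3578 to 5086 in mutants, before any scaling between arrays. The difference was 2.63 within slide 1 and 2.66 within slide 2, so both slides gave nearly the same size. Without mutant arrays A and B it was 2.89, and with 1 array left out it ran from 2.67 to 3.07.

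The second Pfkfb3 probe was dim. It was well above background on no control array and, among mutants, on mutant C alone, so it was not among the tested probes. It read -7.78, -8.09 and -7.88 in controls A, B and C and -5.85, -5.71 and -6.35 in mutants. No fold is given for it, since the mutant signal was measured above background on 1 array. Mutants A and B, where the probe was not well above background, gave higher values than mutant C. On these arrays the lowest level well above background was -5.91 and -5.75, against -7.28 to -7.09 in controls and -7.12 on mutant C.

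Pfkfb4, known from testis and from the response to low oxygen, read -1.02, -1.14 and -1.08 in controls A, B and C and -0.83, -1.27 and -1.27 in mutants. Mutant A was the highest array and mutants B and C the lowest. The difference was -0.042 (SE 0.15, 95% interval -0.41 to 0.32) and did not pass (limma, adjusted p = 0.894). It was -0.25 within slide 1 and 0.28 within slide 2. Its second probe was well above background on no array, so no fold is given. The values of that probe were nonetheless higher in mutants, at -8.96, -9.23 and -9.27 in controls A, B and C and -7.89, -7.69 and -8.42 in mutants, which shows that values under the background level also differed between these arrays.

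Some members followed each other from array to array. Over the 6 arrays Pfkl correlated with Pfkfb2 at r = 0.83 and with Pfkfb4 at r = 0.81 (Pearson), where the points share arrays and scaling. These were the highest values among the members other than Pfkfb3, whose pairs are left out because it was chosen for its rise. The share of all gene pairs that were as alike was not counted. In each of these 3 genes mutant A was the highest of the mutants. Mutant A was also the lowest mutant in the acinar marker genes described below and the only mutant on slide 2. Pfkp and Pfkfb1 were the members other than Pfkfb3 in which all mutants exceeded all controls. Mutant C was the lowest mutant in Pfkm, Pfkl, Pfkfb1 and Pfkfb2.

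**Figure D3:**
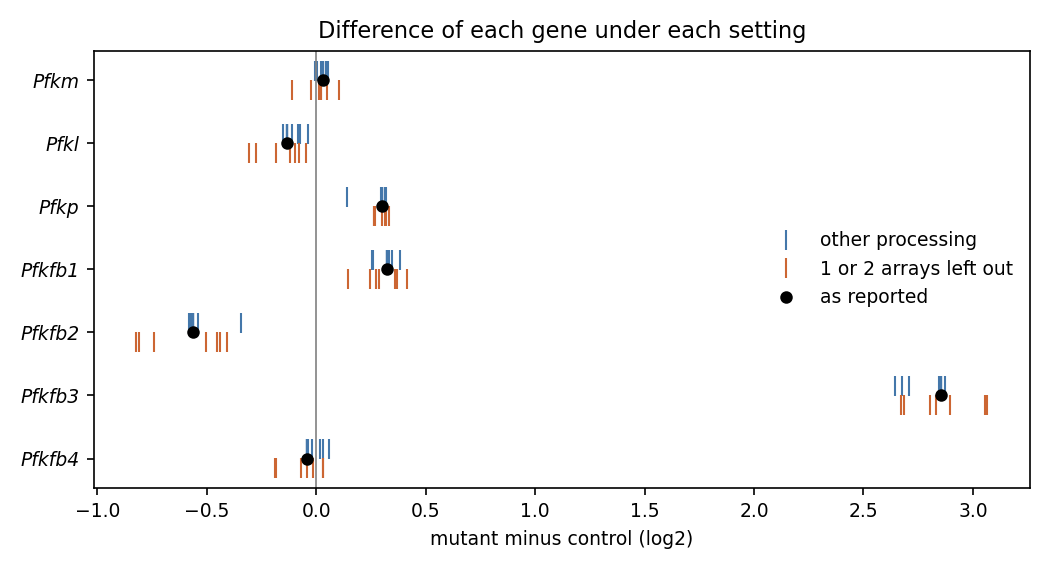
Difference between mutants and controls in log2 units (x axis) for each of the 7 genes as reported (black points), under other processing settings (upper ticks) and with 1 or 2 arrays left out (lower ticks). Pfkfb3 stayed between 2.64 and 3.07, Pfkp, Pfkfb1, Pfkfb2 and Pfkl each stayed on 1 side of 0, and Pfkm and Pfkfb4 had values on both sides.

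Across all settings tried, no member other than Pfkfb3 passed the threshold. The lowest adjusted p in limma over the settings was 0.662 for Pfkm, 0.228 for Pfkl, 0.133 for Pfkp, 0.146 for Pfkfb1, 0.103 for Pfkfb2 and 0.328 for Pfkfb4. Pfkp ran from 0.14 to 0.33, Pfkfb1 from 0.14 to 0.42 and Pfkfb2 from -0.82 to -0.34, each with 1 sign.

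Cell type markers were set beside these values because islet preparations hold several cell types. In such bulk samples fewer cells of a type and less RNA per cell cannot be told apart. Of 9 beta cell markers 3 fell (Slc2a2, Ucn3 and Slc30a8) and none rose in limma, with 1.12% of all genes lower. By sign alone 6 were lower and 3 higher in mutants, the latter being Ins1 (0.26), Ins2 (0.25) and Iapp (0.26). The mean of the 9, relative to the control mean, was -0.062 to 0.11 in controls and -0.63 to -0.56 in mutants, while their summed linear level was 757 to 1037 in controls and 667 to 1070 in mutants. The 10 acinar markers, none of which passed, summed to 928 to 1368 in controls, and to 642, 2084 and 3051 in mutants A, B and C. Mutant A was the lowest mutant in this sum and in Pfkfb3, while the highest was mutant C in the sum and mutant B in Pfkfb3. Alpha cell markers (0 of 4 passed) summed to 306 to 447 in controls and 317 to 579 in mutants, delta cell markers (0 of 3) to 204 to 348 and 314 to 454, and duct markers (0 of 4) to 2.70 to 3.07 and 1.76 to 2.89. None of 6 mesenchymal, 5 endothelial or 5 leukocyte markers passed, with sums of 4.81 to 12.0 and 8.52 to 10.2, of 26.5 to 32.7 and 30.03 to 30.8, and of 29.1 to 30.1 and 17.3 to 23.4. For muscle and fat, tissues that also express Pfkm and Pfkfb3, the markers Ckm, Myh4, Mylpf, Adipoq and Plin1 were not well above background on every array of either group. The tested muscle markers summed to 0.116 to 0.143 in controls and 0.151 to 0.158 in mutants, and the fat markers to 0.0252 to 0.0292 and 0.0154 to 0.0339. The sums of the leukocyte and muscle markers did not overlap between groups, nor did the log2 means of the beta and delta cell markers, while the log2 means of the other lists overlapped. Of single genes tested, 26.3% did not overlap. The leukocyte sum rested mostly on Itgam and Cd3e, both lower in mutants, while Ptprc differed by 0.17. The muscle sum rested mostly on Acta1, higher in mutants, while Tnnt3 differed by -0.15. The duct marker Cftr was named after its values were seen. It read -5.13, -7.11 and -6.54 in controls A, B and C and -4.37, -2.50 and -2.56 in mutants. The difference of 3.12 did not pass (limma, adjusted p = 0.0831) but passed with a slide block (limma, adjusted p = 0.0157). Cftr was well above background on 2 control arrays and all 3 mutant arrays, so it was tested through the mutants alone. The other 3 duct markers were lower in mutants, Krt19 at -1.10, Sox9 at -0.35 and Spp1 at -0.069. The part of cell composition in the members' values was not tested.

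Of the enzymes that act against phosphofructokinase or the Pfkfb kinases, Fbp2 rose in mutants, while Fbp1 and Tigar did not pass. They belong to a list of 9 genes of opposing steps and gluconeogenesis, chosen with earlier results of these data known, of which 2 rose and 1 fell in limma, against 1.41% and 1.12% of all genes. With a filter on all 6 arrays 2 passed, because 1 of the 3, Pck1, was then not tested. The median difference of the list was -0.18 (0.12 with normexp background correction). Fbp2, a fructose bisphosphatase that reverses the phosphofructokinase reaction, rose by 1.95 (SE 0.31; limma, adjusted p = 0.0415), and by 1.01 with normexp. It read -6.33, -6.08 and -5.33 in controls A, B and C and -4.10, -3.53 and -4.23 in mutants, and a slide block gave adjusted p = 0.0628 in limma. Its relative Fbp1 read 0.50, 0.66 and 0.90 in controls and 2.24, 2.28 and 0.95 in mutants, a difference of 1.14 (SE 0.38) that did not pass (limma, adjusted p = 0.172). Mutant C stood just above the highest control, and without mutant C the difference was 1.57 (limma, adjusted p = 0.0499), against 0.27 without mutant arrays A and B (limma, adjusted p = 0.565). Tigar, which breaks down fructose 2,6-bisphosphate as the phosphatase domain of the Pfkfb enzymes does, read 1.08, 1.39 and 1.15 in controls and 0.68, 0.56 and 0.60 in mutants. All mutants lay below all controls, as in 14% of all genes tested, and the difference of -0.59 (SE 0.12) did not pass (limma, adjusted p = 0.0661). Fbp1 and Tigar were named after their values were seen. Pck1, the kinase that makes phosphoenolpyruvate from oxaloacetate, was well above background on no control array and on all 3 mutant arrays, and was tested only for that reason. It read -7.38, -7.48 and -7.92 in controls and -5.68, -4.52 and -4.86 in mutants, and its difference was 2.58, or 0.99 with normexp. Pcx, pyruvate carboxylase, fell by 0.997 on the log2 scale (SE 0.15; limma, adjusted p = 0.0366).

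Of 22 genes for the other steps of glycolysis none fell in limma, and the median difference was -0.045. Ldhb, a lactate dehydrogenase subunit named after its values were seen, read 1.47, 1.25 and 1.04 in controls A, B and C and 0.74, 0.55 and 0.30 in mutants. All mutants lay below all controls, as in 14% of all genes tested, and the difference of -0.72 (SE 0.17) did not pass (limma, adjusted p = 0.0891).

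None of 14 genes for kinases known to act on Pfkfb enzymes passed in limma, among them the subunits of AMP-activated protein kinase and protein kinase A, 2 of them had an unadjusted p under 0.05 in limma, against 20.2% of all genes, and their median difference was -0.076. The largest in size were Prkab1 at -0.50 (limma, adjusted p = 0.205) and Prkag2 at -0.49 (limma, adjusted p = 0.0689), both subunits of AMP-activated protein kinase. Prkag2 passed in limma with normexp (adjusted p = 0.0494), in the authors' table (adjusted p = 0.0457) and with a variance trend (adjusted p = 0.0302). Of 22 hypoxia response genes, a program that is known to include Pfkfb3 and Pfkfb4, 2 rose and none fell in limma, against 1.41% and 1.12% of all genes, and the median was 0.00013. These were Hif3a, a hypoxia-inducible factor subunit (1.84, SE 0.30; limma, adjusted p = 0.0427), and Egln3, an oxygen-sensing prolyl hydroxylase (2.22, SE 0.38; limma, adjusted p = 0.0477). A second probe of Hif3a differed by 0.15 (limma, adjusted p = 0.809) and a second probe of Egln3 by 1.93 (limma, adjusted p = 0.0638). Neither gene passed in limma with a slide block, at adjusted p = 0.0527 for Hif3a and 0.0599 for Egln3. With normexp the differences were 1.13 for Hif3a and 1.46 for Egln3, which then did not pass in limma (adjusted p = 0.0586). Fbp2, Pck1, Pcx, Hif3a and Egln3 did not pass in limma without mutant arrays A and B, where no gene did. With 1 array left out in turn, Pck1, Pcx, Hif3a and Egln3 passed only without mutant A, and Fbp2 in none of the 6 fits.

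**Figure D4:**
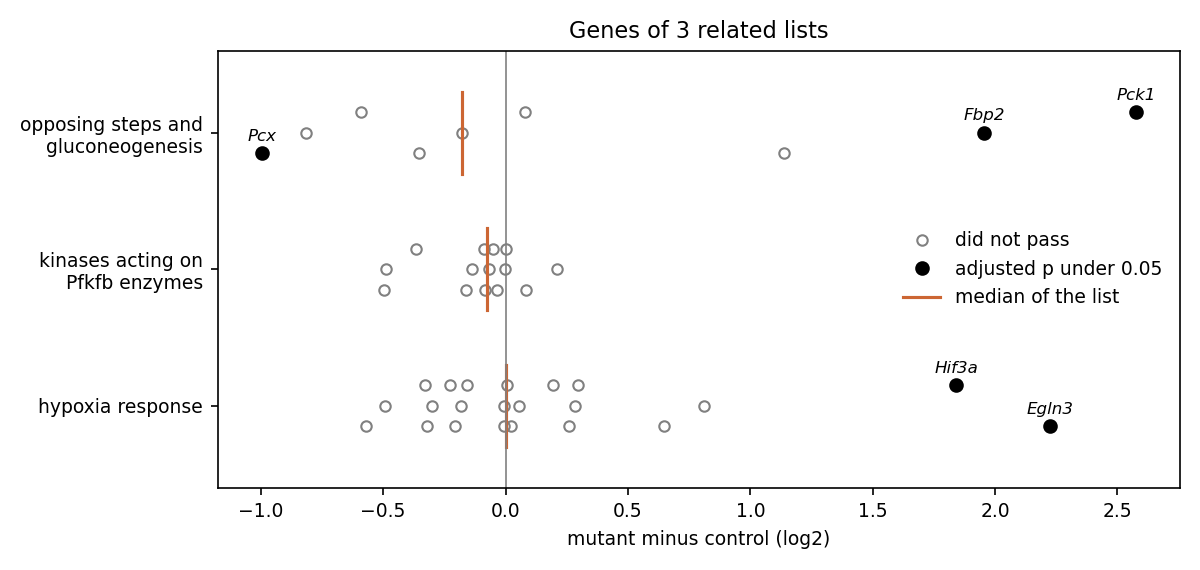
Difference between mutants and controls in log2 units (x axis) for each gene of 3 related lists (rows), with filled points for genes past the threshold, open points for the others and a vertical bar at the median of a list. The medians lie between -0.18 and 0.00013, and the named points at the right are the 4 genes that rose. One of them, Pck1, was tested only because it was well above background in mutants.

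The genes most like Pfkfb3 from array to array are named as a description, by the highest Pearson correlation of normalized log2 signal over the 6 arrays, which fall into a high and a low group. They were Tbc1d14, a Rab GTPase-activating protein family member (r = 0.999), Sdhaf4, an assembly factor of succinate dehydrogenase (0.998), Cpb2, a plasma carboxypeptidase (0.998), Arrdc4, an arrestin domain protein (0.997), and Rasgef1b, an exchange factor for small GTPases (0.997). The sizes of their differences were unlike, at 0.41 for Tbc1d14, 0.47 for Sdhaf4, 2.45 for Cpb2, 2.34 for Arrdc4 and 1.62 for Rasgef1b, beside 2.85 for Pfkfb3. In each of the 6 genes, control A was the highest control, control C the lowest, mutant B the highest mutant and mutant A the lowest. The choice by correlation favours such a shared order.

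**Figure D5:**
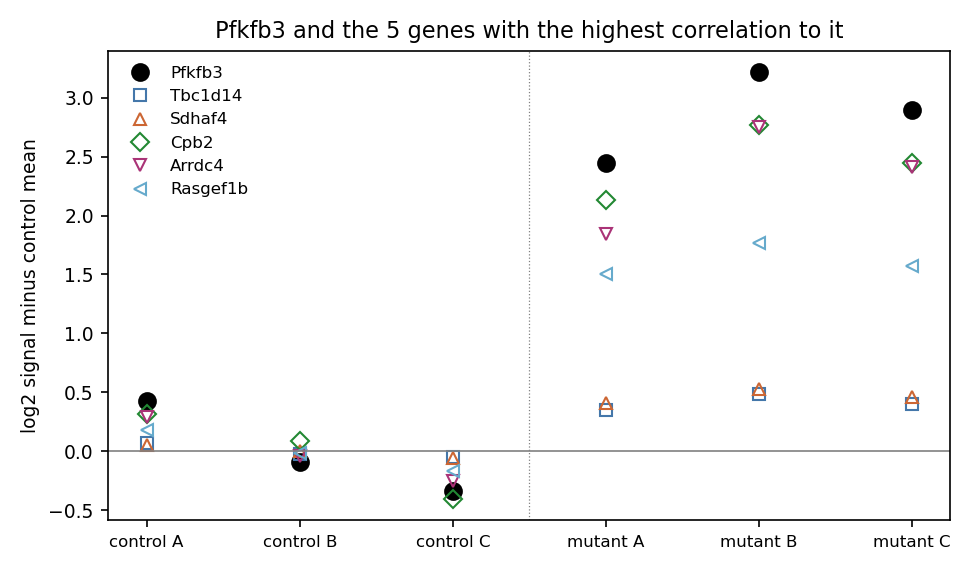
Normalized log2 signal minus the control mean (y axis) of Pfkfb3 and of the 5 genes with the highest correlation to it, on each of the 6 arrays (x axis). All 6 genes share the order of arrays, which the choice by correlation favours, with control C lowest and mutant B highest. They differ in the size of the step from controls to mutants.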

How the data were processed

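RNA of 6 islet samples (150 ng each, labelled with Cy3) was measured on Agilent arrays. Per the file headers, the authors read the scans with Agilent Feature Extraction 10.7.3.1, which wrote spot intensities corrected for background, with other values as flags for signal above background, saturation and outliers. The authors also deposited a table of linear intensities whose scaling between arrays is not given in the sources used here. Its columns (medians 266.95 to 274.55) ranked spots as the median scanner signal did, with rank correlations of at least 0.999, and it served as an alternative.

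Spots of a probe were averaged as log2 values, from which the array's 75th percentile was subtracted. Tested were the 28361 probes well above background on all arrays of 1 group or both. A gene name is represented by the brightest of its tested probes. Of the 10 member probes 8 were tested, none was saturated, and 1 member spot was flagged as an outlier. The test was limma 3.58.1, two-sided, under R 4.3.3, after reading the files with the package data.table (version 1.17.8), with Benjamini-Hochberg adjustment over all genes. Differences are mutant minus control, and folds compare geometric means. The number of arrays limits the precision. On simulated data for this comparison (22775 genes) 35 of 67 genes changed by 1 log2 unit, 54 of 67 changed by 2 and 59 of 66 changed by 3 were recovered, with 8 false calls. The simulated noise was normal and independent, with the SDs shuffled among genes. It held no slide effect and no deviation shared by the genes of an array, so recovery in the real data can differ.

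Both groups use the letters A to C, and no label pairs them. For want of such a label the samples were not treated as pairs. Deviations of same-letter samples correlated at -0.23, -0.19 and -0.031. Samples of the same letter always lay on different slides, so these values cannot show whether the letters mark pairs. The members and lists were chosen with earlier results of these data known. Named are all members, up to 4 called genes of a list with the smallest p (or the 2 with the largest difference), Nkx6-1 and the 5 genes most like Pfkfb3. Some genes of the glycolysis list are not reported here. Tigar stands in the files as 9630033F20Rik and Sdhaf4 as 1110058L19Rik. Alternatives were normexp (offset 50), quantile and median scaling, the deposited table, no filter and a filter on all 6 arrays, outlier spots left out, a variance trend with robust estimation, a block on slide or letter, the mean of probes, an adjusted p under 0.1, and arrays left out.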

Additional observations from a re-analysis of the deposited data

How the results depend on the processing

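Over all genes, 576 passed the threshold in limma. The count was 1514 at an adjusted p under 0.1, and 13 (without control B) to 418 (without control A) with 1 array left out, at 21 without control C, 283 without mutant A, 20 without mutant B and 72 without mutant C. With the replicate block on the letters, limma called 0 genes (3163 at an unadjusted p under 0.05), and without mutant arrays A and B, chosen after seeing the data, also 0 (3864 at an unadjusted p under 0.05), with the lone mutant assumed to vary as the controls do. Fewer samples or residual degrees of freedom are part of how these fits are made, and the cause was not tested further. Differences of Pfkm and Pfkfb4, which never passed, changed sign. Pfkm was -0.0054 with quantile normalization, -0.11 without mutant arrays A and B, and -0.022 to 0.10 with 1 array left out. Pfkfb4 was 0.030 with normexp, 0.059 in the authors' table, 0.016 with a slide block, and -0.19 to 0.032 with 1 array left out. The median of the opposing steps was 0.12 with normexp, 0.095 in the authors' table, 0.075 with a slide block, and -0.34 to 0.075 with 1 array left out. The cause was not tested. The differences of the other members and the medians of the other lists kept their direction or moved by less than the spread between replicates. The number of hypoxia response genes that passed in limma, 2 as reported, was less steady. It was 1 with normexp, quantile or median scaling and in the authors' table. It was 0 without a filter, with a slide block and with the mean of probes, and 3 with a variance trend. Other scalings moved the median of all genes by under 0.1. Second probes of Pfkfb3 and Pfkfb4 were limited by signal over background.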
